A study of Mesocricetus auratus with 6 samples.

Results

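Levels of 6 clock output genes were read in cortex, suprachiasmatic nucleus (SCN) and liver of wild type and *duper* Syrian hamsters. The genes were the PAR bZIP factors *Dbp*, *Tef* and *Hlf*, the DEC repressors *Bhlhe40* (DEC1) and *Bhlhe41* (DEC2), and *Ciart* (CHRONO). They were taken by name, as direct targets of the E-box, from the 31593 genes of the deposited matrices, and all 6 were present and passed the filter on low counts. *duper* hamsters are homozygous for *duper*, a null mutation of the clock repressor *Cry1*, on the LVG ecotype; the allele arose in animals carrying *tau*, and the *duper* hamsters used here no longer carried *tau*. Wild type hamsters were LVG animals from the supplier or bred from its stock. Both genotypes had been raised on a long-day light-dark cycle and were killed at circadian time 15 (CT15), in the early subjective night, with 4 hamsters per genotype. All 4 *duper* hamsters were female and the wild type hamsters were 2 males and 2 females, so sex and genotype cannot be told apart fully, and ages were not given in the sources used here.

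The clock in these tissues is a loop of transcription. The heterodimer of CLOCK (or NPAS2) and BMAL1, which is encoded by *Arntl*, binds E-boxes and drives the *Per* and *Cry* genes, whose products repress it. The same E-boxes drive the output genes described here. DBP, TEF and HLF are activators that bind D-boxes and carry the rhythm to metabolic and detoxification genes, above all in liver, and NFIL3 is the repressor that competes for the same sites. DEC1 and DEC2 are basic helix-loop-helix repressors that occupy E-boxes, and CIART represses CLOCK and BMAL1 from within their complex, so these 3 products feed back on the step that makes them.

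Each genotype and tissue was represented by 1 library. The RNA of 4 hamsters was mixed for cortex and for SCN, and the reads of 4 liver libraries were merged, so no spread between hamsters could be read within a tissue. Total estimated counts ran from 6788827 (wild type cortex) to 85748488 (*duper* liver). *Cry1* checked the labels: it stood at 33.3 TPM (a level scaled to the library total and corrected for transcript length) in wild type and 8.56 in *duper* cortex, at 22.9 and 8.14 in SCN, and at 16.8 and 5.44 in liver. Cortex markers summed to 1060 and 962 TPM in the cortex libraries and to at most 22.6 elsewhere, and liver markers summed to at least 124000 TPM in liver and at most 135 in brain. Of 10 SCN markers 8 were listed under their symbol, and *Nms*, a neuropeptide of SCN neurons, was found in the SCN libraries alone, at 33.5 TPM in wild type and 13.4 in *duper*. *Six6*, *Lhx1*, *Syt10*, *Zfhx3* and *Rgs16* were higher in both SCN libraries than in both cortex libraries, but *Prok2* was not. The list summed to 28.6 and 29.1 TPM in cortex but to 128 and 137 in liver, where *Rgs16* alone stood at 125 and 135. The SCN libraries differed from each other in SCN markers, which summed to 120 TPM in wild type and 82.5 in *duper*. Among these markers *Prokr2*, a receptor of SCN neurons, stood at 8.42 and 1.37, against 5.46 and 3.07 in cortex. The SCN libraries also differed in markers of nearby tissue: *Ttr*, the transthyretin of choroid plexus, stood at 165 TPM in wild type and 24.1 in *duper* SCN, and *Pmch*, a peptide of the lateral hypothalamus, at 58.2 and 11.4. Over the lists, 5 markers of choroid plexus and ependyma summed to 222 and 67.3 TPM in SCN, and 5 of neighbouring hypothalamus to 272 and 311. The part of these differences in the SCN values below was not tested.

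The PAR bZIP genes were the most abundant of the 6 in brain and fell from cortex to SCN to liver on the TPM scale. *Dbp* stood at 169 TPM in wild type and 155 in *duper* cortex, at 89.9 and 93.1 in SCN, and at 40.5 and 20.2 in liver. *Tef* stood at 192 and 189 TPM in cortex, at 118 and 143 in SCN, and at 73.7 and 67.9 in liver, again wild type first. *Hlf* stood at 162 and 191 TPM in cortex, at 58.2 and 56.2 in SCN, and at 37.3 and 34.3 in liver. For each of the 3 genes the order cortex, SCN, liver held in both genotypes. The 2 libraries of a tissue did not overlap those of the next. The share of all genes with this order was not computed. A lower TPM in liver was common: the median log2(TPM + 1) difference of all genes tested was −1.2 in liver against SCN. Under another scaling, given below, *Tef* and *Hlf* were higher in liver than in SCN. The counts behind the TPM values were 485 to 2412 for *Dbp*, 2099 to 14232 for *Tef* and 1108 to 9634 for *Hlf*.

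The DEC genes parted from each other in liver. *Bhlhe40* stood at 97.7 TPM in wild type and 121 in *duper* cortex, at 40.7 and 41.2 in SCN, and at 73.2 and 70.5 in liver, so its lowest tissue was SCN. *Bhlhe41* stood at 25.9 and 32.1 TPM in cortex and at 26.5 and 35.7 in SCN, where the libraries of both tissues overlapped, but at 0.173 and 0.369 TPM in liver, from 23 and 61 counts. *Bhlhe41* therefore made up 20.9% of the summed DEC TPM in each cortex library, 39.4% and 46.5% in wild type and *duper* SCN, and 0.236% and 0.521% in liver. The estimated counts of *Bhlhe40* were not whole numbers in any of the 6 libraries (tolerance 0.001), so that a part of its reads was shared with other transcripts. The other 5 genes had whole counts in all libraries.

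*Ciart* was the least abundant of the 6 in the brain tissues. It stood at 17.2 TPM in wild type and 21.7 in *duper* cortex, at 7.01 and 9.86 in SCN, and at 0.545 and 0.368 in liver. The libraries of different tissues did not overlap, but the share of all genes with this pattern was not computed. The difference between SCN and cortex was not called by edgeR, as given below. Its counts were small throughout, from 26 in *duper* liver to 147 in wild type SCN, and its ratios are the least precise of the set. In liver only *Bhlhe41* and *Ciart* lay below 1 TPM, whereas *Tef*, *Bhlhe40*, *Hlf* and *Dbp* all exceeded 20 TPM there.

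**Figure D1:**
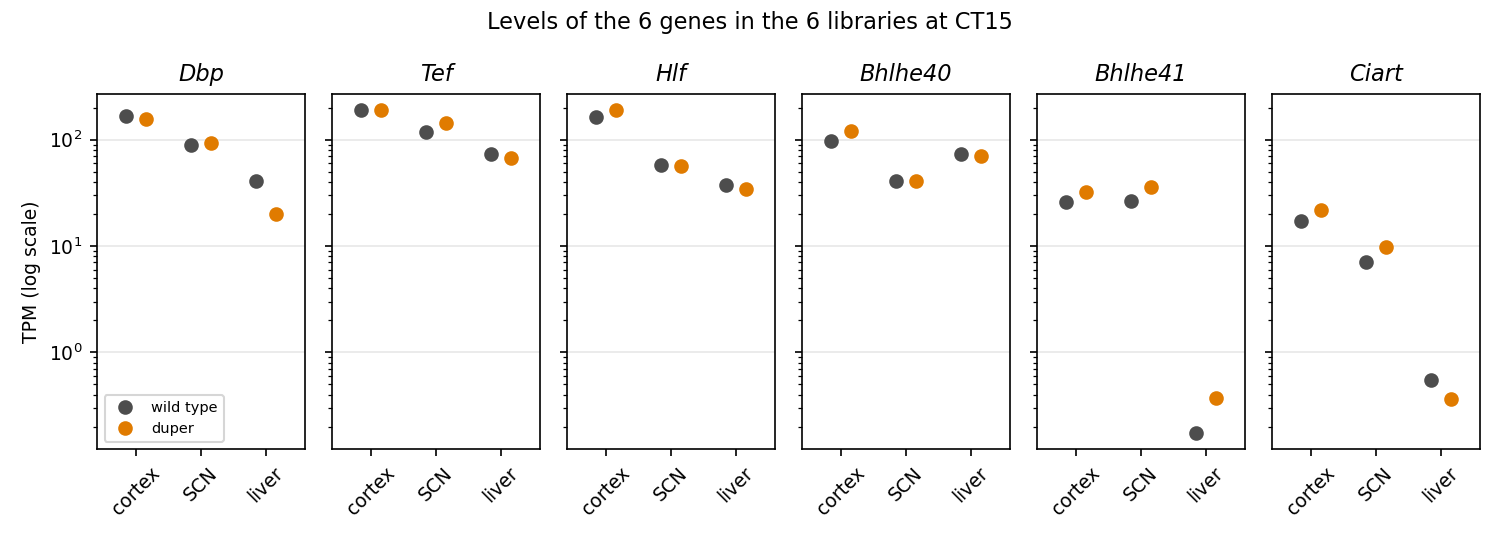
TPM on a log axis of each gene in each of the 6 libraries, wild type in grey and *duper* in orange, 1 point per library and no error bar since there was 1 library per genotype and tissue. *Bhlhe41* and *Ciart* drop below 1 TPM in liver, *Dbp*, *Tef* and *Hlf* step down from cortex to SCN to liver, and *Bhlhe40* is lowest in SCN.

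The genes were annotated on BCM_Maur_2.0, the build of the deposited files, on scaffolds with no chromosome named in the annotation table. They differ in size: *Hlf* spans 54877 bases and *Tef* 24169, whereas *Bhlhe40* spans 6100, *Dbp* 4860, *Bhlhe41* 4484 and *Ciart* 3662. All are protein coding. *Dbp*, *Bhlhe40*, *Bhlhe41* and *Ciart* had 1 annotated transcript each (1610, 3004, 3317 and 1547 bases). *Dbp* is not under that symbol in the annotation table and was matched to its transcript by equal counts in all libraries.

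*Tef* and *Hlf* had 2 annotated transcripts each, of nearly equal length. The longer *Tef* transcript (4170 against 4123 bases) took 40.6% of *Tef* TPM in wild type and 45.2% in *duper* cortex, 30.9% and 50.2% of it in SCN, and 55.6% and 55.4% of it in the liver libraries. The longer *Hlf* transcript (5481 against 5475 bases) was the minor form in every library, at 22.6% and 16.2% in the cortex libraries, at 16.4% and 8.90% in SCN, and at 14.4% and 20.2% in liver. In liver the *Tef* split was alike in both genotypes, whereas in SCN it moved by more than in the other tissues. These are estimated assignments of shared reads with no replicate, and no test was made on them.

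A ratio of genes within a library does not depend on how libraries are scaled to each other. Its 95% intervals below cover counting error only, since there was 1 library per genotype and tissue. They take reads as independent, and reads without molecular identifiers are not independent molecules, so the intervals may be too narrow. *Dbp* made up 32.3% and 29.0% of the summed PAR bZIP TPM in wild type and *duper* cortex and 33.9% and 31.9% in SCN, but 26.7% in wild type liver and 16.5% in *duper* liver. The ratio of *Dbp* to *Tef* was 0.549 (0.526 to 0.574) in wild type liver and 0.298 (0.282 to 0.314) in *duper* liver. In cortex the same ratio was 0.880 (0.809 to 0.956) and 0.822 (0.766 to 0.881), intervals that overlap, and in SCN it was 0.766 (0.728 to 0.805) and 0.654 (0.591 to 0.722). The SCN intervals do not overlap. The ratio of *Hlf* to *Tef* was 0.506 in both liver libraries (0.492 to 0.520 in wild type and 0.493 to 0.519 in *duper*). It differed between the libraries of the genotypes in the brain tissues, at 0.845 (0.80 to 0.894) and 1.01 (0.966 to 1.05) in cortex and at 0.496 (0.478 to 0.514) and 0.394 (0.366 to 0.424) in SCN, in opposite directions. Within the PAR bZIP family the liver libraries of the genotypes thus differed in the share of *Dbp*.

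The balance between D-box activators and their repressor differed by tissue. *Nfil3* stood at 11.4 and 9.22 TPM in wild type and *duper* cortex, at 7.23 and 9.62 in SCN, and at 26.3 and 31.0 in liver. The ratio of *Dbp* to *Nfil3* was 14.8 (11.5 to 19.3) and 16.8 (13.3 to 21.5) in cortex, and 12.4 (10.8 to 14.4) and 9.68 (7.42 to 12.8) in SCN. In liver it was 1.54 (1.45 to 1.63) in wild type and 0.653 (0.613 to 0.695) in *duper*, so that *duper* liver was the only library of the 6 with more *Nfil3* than *Dbp*. Summed over *Dbp*, *Tef* and *Hlf* the activators exceeded *Nfil3* in every library, 45.8-fold and 58.0-fold in cortex, 36.7-fold and 30.3-fold in SCN, and 5.75-fold and 3.95-fold in liver.

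The order of the repressor *Bhlhe40* and the activator *Dbp* also changed between tissues. *Bhlhe40* was below *Dbp* in cortex, at ratios of 0.579 (0.524 to 0.640) in wild type and 0.782 (0.722 to 0.846) in *duper*, and in SCN, at 0.452 (0.424 to 0.482) and 0.442 (0.388 to 0.505). In liver it was above *Dbp*, 1.81-fold (1.73 to 1.89) in wild type and 3.49-fold (3.30 to 3.69) in *duper*. *Bhlhe40* was likewise below *Hlf* in the brain libraries and above it in liver, at ratios of 1.96 and 2.05. Its ratio to *Tef* in liver was 0.994 (0.967 to 1.02) in wild type and 1.04 (1.01 to 1.07) in *duper*. The other repressors, *Bhlhe41* and *Ciart*, were below *Dbp*, *Tef* and *Hlf* in every library. The ratio of *Bhlhe40* to *Bhlhe41* was 3.78 in both cortex libraries, 1.54 and 1.15 in SCN, and 423 (282 to 667) and 191 (149 to 250) in liver.

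**Figure D2:**
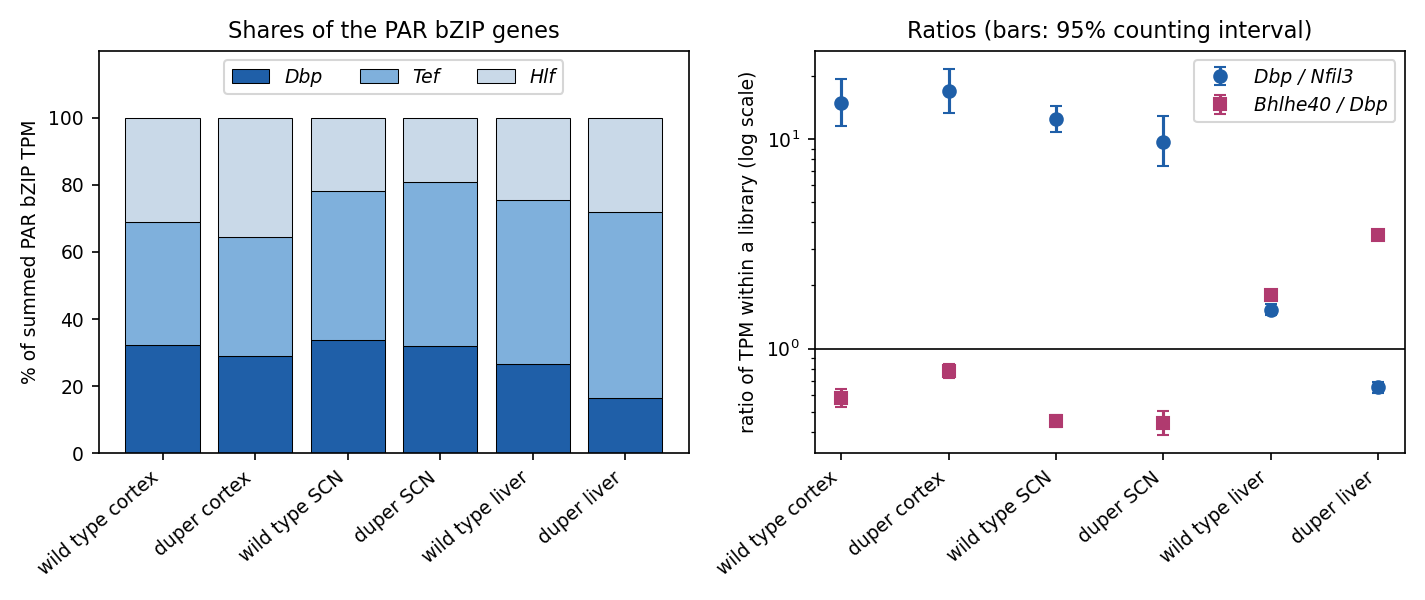
Left, the share (%) of *Dbp*, *Tef* and *Hlf* in their summed TPM in each library; right, the ratios *Dbp* to *Nfil3* (circles) and *Bhlhe40* to *Dbp* (squares) on a log axis, with 95% counting intervals. The share of *Dbp* is lowest in *duper* liver (16.5%), where *Dbp* falls below *Nfil3* and *Bhlhe40* is 3.49-fold above *Dbp*.

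Tissues were then compared across all genes with edgeR's quasi-likelihood test on the estimated counts scaled by TMM (trimmed mean of M values), with genotype as a covariate. There were 2 libraries per tissue, 1 of each genotype, and the fit assumed 1 spread for all tissues. Calls required an adjusted p (Benjamini-Hochberg over 18275 genes) below 0.05 together with a log2 fold change beyond 0.58 in either direction. In bulk tissue a lower level may come from fewer cells of a type or from less RNA per cell, and these cannot be told apart.

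In SCN against cortex, *Hlf* and *Bhlhe40* were lower. *Hlf* fell by 1.62 on the log2 scale (SE 0.14, adjusted p = 0.00143 by edgeR) and *Bhlhe40* fell by 1.41 (SE 0.14, adjusted p = 0.00189 by edgeR). These were 2 of the 6 genes, where 7.28% of all genes tested were called lower, and none of the 6 was called higher, against 3.91% of all genes. *Ciart* had a log2 fold change of −1.23 (SE 0.36, adjusted p = 0.0776 by edgeR), *Dbp* −0.82 (SE 0.22, adjusted p = 0.0593) and *Tef* −0.56 (SE 0.15, adjusted p = 0.0597), and none of these was called. *Dbp* and *Ciart* lay near the threshold: DESeq2 called both, with adjusted p of 0.0441 and 0.0495. *Bhlhe41* had a log2 fold change of 0.10 (SE 0.22, adjusted p = 0.830 by edgeR). The median of the 6 log2 fold changes was −1.02, and that of all genes 0.02. Other cell types moved in the same comparison: of the 6 cortex markers 5 were tested and all 5 were called lower in SCN, with a median of −5.76. The 3 oligodendrocyte markers listed summed to 1770 and 2320 TPM in cortex and to 3360 and 2910 in SCN, and none was called. Among markers of other cells *Ttr* was called lower in SCN, at 1837 and 2505 TPM in cortex against 165 and 24.1 (log2 fold change −4.62, adjusted p = 0.0136 by edgeR), and *Aqp4* of astrocytes higher (1.41, adjusted p = 0.00267). *Pomc* and *Alas2* were also called higher, and *Sst* lower. Their part in the members' differences was not tested.

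In liver, *Bhlhe41* and *Ciart* were lower than in either brain tissue on every scaling and tool tried. *Bhlhe41* fell by 5.17 on the log2 scale against cortex (SE 0.28, adjusted p = 5.4e-06 by edgeR) and it fell by 5.26 against SCN (SE 0.28, adjusted p = 5.2e-06). *Ciart* fell by 3.84 against cortex (SE 0.40, adjusted p = 0.000141 by edgeR) and it fell by 2.61 against SCN (SE 0.39, adjusted p = 0.000893). Both comparisons use the same liver libraries and are not independent. The 6 cortex markers summed to 0.519 and 0.284 TPM in wild type and *duper* liver, none of them reaching 1 TPM.

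For the other 4 genes the liver comparison depended on the scaling. The liver libraries held very abundant transcripts, *Alb* (albumin) alone standing at 107300 TPM in wild type and 112100 in *duper*. The median log2 fold change of all genes in liver against cortex was −0.02 under TMM, −1.14 with library size in place of TMM, and −1.20 on the log2(TPM + 1) scale. Against cortex, *Bhlhe40* was higher in liver by 0.97 under TMM (SE 0.13, adjusted p = 0.000611 by edgeR) but −0.59 on the log2(TPM + 1) scale (SE 0.13, adjusted p = 0.0103 by limma). *Tef* moved from 0.14 (SE 0.15, adjusted p = 0.412 by edgeR) to −1.42 (SE 0.13, adjusted p = 0.000445 by limma). *Dbp* fell by 0.91 (SE 0.22, adjusted p = 0.00813 by edgeR) and *Hlf* fell by 0.73 (SE 0.14, adjusted p = 0.00314), and these 2 were lower on each scaling, but both calls were lost without *duper* cortex (adjusted p = 0.0781 and 0.0599 by edgeR). Without *duper* liver *Dbp* fell by 0.51, under the fold required. Under TMM 1 of the 6 genes was called higher, where 31.9% of all genes were, and 4 were called lower, where 33.6% of all genes were.

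Against SCN the same split appeared. *Bhlhe40* was higher in liver by 2.38 under TMM (SE 0.14, adjusted p = 8.4e-06 by edgeR), and it stayed higher on the log2(TPM + 1) scale; it was also 1.80-fold above SCN in wild type and 1.71-fold in *duper* by TPM alone. *Hlf* and *Tef* were higher by 0.89 (SE 0.14, adjusted p = 0.00124 by edgeR) and 0.70 (SE 0.15, adjusted p = 0.00472) under TMM, and lower, at −0.66 and −0.86, on the log2(TPM + 1) scale (adjusted p = 0.00645 and 0.00271 by limma). The call of *Tef* was lost without wild type SCN (adjusted p = 0.0937 by edgeR). *Dbp* was −0.09 (SE 0.22, adjusted p = 0.739 by edgeR) under TMM and −1.64 (adjusted p = 0.00371 by limma) on the log2(TPM + 1) scale. Under TMM 3 of the 6 were called higher and 2 lower, against 31.9% and 32.9% of all genes.

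**Figure D3:**
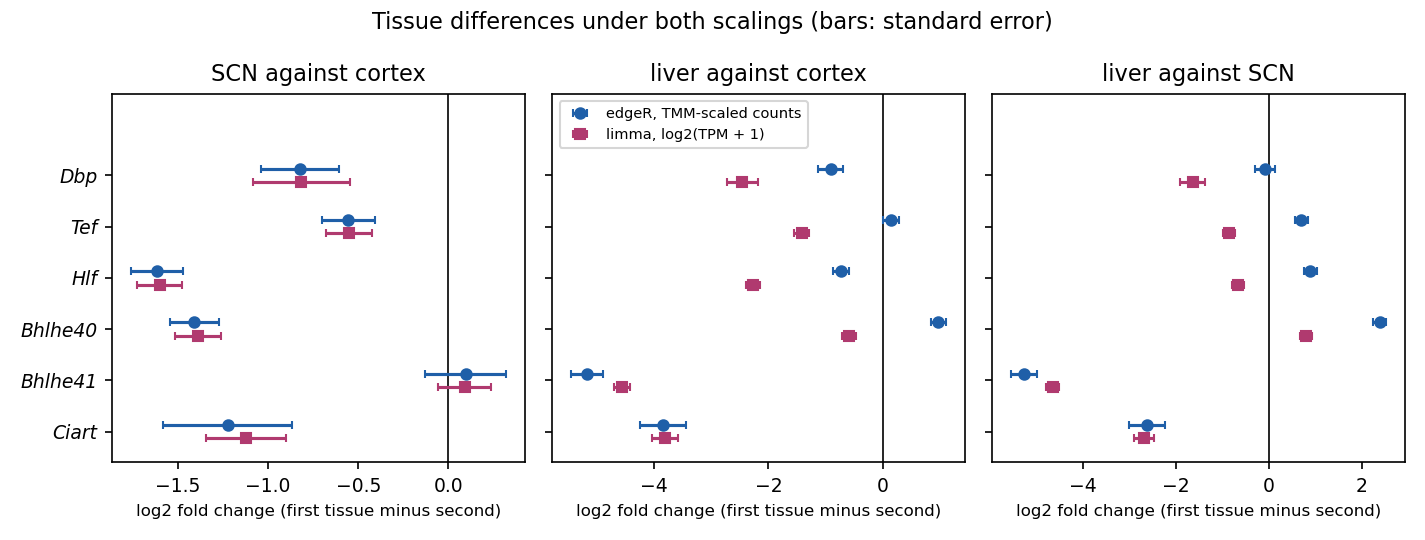
Log2 fold changes between tissues (first tissue minus second) with their standard errors, from edgeR on TMM-scaled counts (circles) and limma on log2(TPM + 1) (squares), 2 libraries per tissue. The scalings nearly coincide for SCN against cortex, while in the liver comparisons *Bhlhe41* and *Ciart* are lower on both and *Tef* changes sign or side.

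The genotypes were compared over all 3 tissues, with tissue as a covariate, so that each tissue served as a replicate even though the hamsters were the same. None of the 6 genes was called, where 0.00547% of all genes were. *Cry1*, the mutated gene, was not called either (log2 fold change −1.69, SE 0.17, adjusted p = 0.131 by edgeR). The lack of a call for the 6 is therefore no sign that they were unchanged. With DESeq2 and with limma none of the 6 was called either. At an unadjusted p under 0.05 there was 1 of the 6, *Bhlhe41*, against 3.32% of all genes. *Bhlhe41* was also the one member higher in *duper* in all 3 tissues by intervals that excluded 0, given next.

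Within a tissue there was 1 library per genotype, so differences are given as log2 ratios of TPM (*duper* over wild type) with 95% Clopper-Pearson intervals of counting error and no test. In cortex 3 genes had intervals above 0, with ratios of 0.24 (0.17 to 0.30) for *Hlf*, 0.31 (0.19 to 0.43) for *Bhlhe40* and 0.31 (0.09 to 0.54) for *Bhlhe41*. The intervals of *Ciart* at 0.34 (−0.08 to 0.77), *Dbp* at −0.12 (−0.26 to 0.02) and *Tef* at −0.02 (−0.10 to 0.05) included 0. Glial markers had ratios of the same order in cortex, with medians of 0.35 for oligodendrocytes, 0.19 for astrocytes and 0.23 for microglia, and their part was not tested. None of the 6 lay past a log2 ratio of 0.58 on the log2(TPM + 1) scale, where 16.0% of the genes averaging 1 TPM or more did.

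In SCN, the seat of the central pacemaker, the ratios were 0.43 (0.27 to 0.59) for *Bhlhe41*, 0.28 (0.21 to 0.35) for *Tef* and 0.49 (−0.01 to 0.97) for *Ciart*. *Dbp* at 0.05 (−0.10 to 0.19), *Bhlhe40* at 0.02 (−0.14 to 0.17) and *Hlf* at −0.05 (−0.15 to 0.04) had intervals that included 0. None of the 6 was past the fold, against 14.4% of genes. The SCN markers had a median log2 ratio of −0.48, and their part was not tested. The *duper* SCN library was the shallower of the pair, with 7248733 against 29936106 counts.

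In liver, *Dbp* was the member that differed most by the log2(TPM + 1) ratio. Its log2 ratio was −1.0 (−1.10 to −0.91), from 2412 counts in wild type and 1498 in the deeper *duper* library, and it was −0.80 on TMM-scaled counts, so it was lower on either scaling. *Tef* at −0.12 (−0.15 to −0.08), *Hlf* at −0.12 (−0.16 to −0.08) and *Bhlhe40* at −0.05 (−0.10 to −0.01) were lower in *duper* by TPM but at 0.07, 0.07 and 0.13 on TMM-scaled counts; the median of all genes in liver was −0.11 and 0.06 on these scales. *Bhlhe41* was at 1.09 (0.38 to 1.85) and *Ciart* at −0.57 (−1.38 to 0.23), both from under 1 TPM, where the log2(TPM + 1) ratios were 0.22 and −0.18. On that scale 1 of the 6, *Dbp*, was past the fold, against 15.3% of genes. Markers of macrophages, 5 genes, summed to 108 TPM in wild type and 149 in *duper* liver, and 3 red cell markers to 16.5 and 7.88, and their part in these ratios was not tested.

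**Figure D4:**
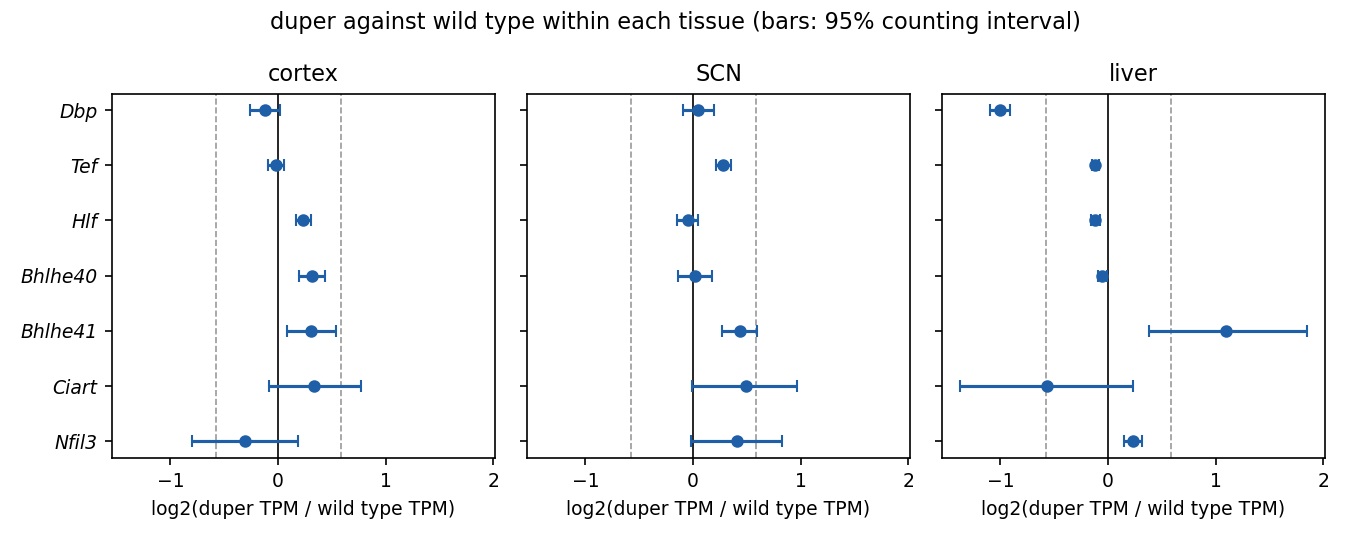
Log2 ratio of *duper* over wild type TPM in each tissue for the 6 genes and *Nfil3*, 1 library per genotype, with bars for the 95% counting interval; dashed lines mark 0.58 in either direction. In cortex and SCN no point lies past the dashed lines, and in liver *Dbp* lies at −1.0 and *Bhlhe41*, from 23 and 61 counts, at 1.09.

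Whether the genotype difference in liver differed from that in the brain tissues was tested as an interaction in edgeR. For *Dbp* the difference was −0.76 on the log2 scale (SE 0.19, adjusted p = 0.0478 by edgeR), which made 1 of the 6 genes called lower, against 1.36% of all genes. The fit left 1 residual degree of freedom, from the difference between SCN and cortex. The call of *Dbp* was lost when no filter on low counts was set (adjusted p = 0.0502 by edgeR), with DESeq2 (adjusted p = 0.696) and with limma on either TPM scale (adjusted p = 0.677 and 0.548), while its size ran from −0.96 to −0.76 over all settings. *Bhlhe41* was at 0.92 (SE 0.38, adjusted p = 0.239 by edgeR) and *Ciart* at −0.77 (SE 0.66, adjusted p = 0.630), and *Tef*, *Hlf* and *Bhlhe40* were between −0.04 and 0.00. The samples come from 1 circadian time, so a different level and a different phase of a rhythm cannot be told apart.

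The genes upstream of the 6 and the genes they act on were read from lists chosen with earlier results of these data known. In the comparison of genotypes over all tissues no gene of these lists was called by edgeR. Among the E-box activators *Arntl*, which encodes BMAL1, stood at 1.43 TPM in wild type and 6.33 in *duper* liver, the one past the fold of the 3 that averaged 1 TPM or more in liver. It stood at 27.8 and 31.7 TPM in the cortex libraries, wild type first, and at 16.6 and 20.1 in those of SCN. The interaction was 2.09 (SE 0.28, adjusted p = 0.00116 by edgeR); limma called no gene in the interaction at either pseudocount, so this call and those of *Per2* and *Hey1* below were lost there. *Arntl* was thus higher in *duper* liver, in the tissue where *Dbp* was lower.

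Of 12 other E-box target genes 11 were listed under their symbol. In liver 4 of the 11 were lower in *duper* past the fold and none was higher, where 10.5% of all genes were lower and 4.75% higher: *Per2*, from 31.3 to 17.5 TPM, *Per3*, from 18.8 to 10.8, *Usp2*, a ubiquitin protease, from 6.36 to 3.89, a log2(TPM + 1) ratio of −0.59 just past the fold, and *Cry1*, the mutated gene. Their median log2 ratio in liver was −0.30, against −0.11 for all genes. In cortex 1 of the 11 was higher and 1 lower, against 8.24% and 7.75% of all genes, and in SCN 2 were higher and 1 lower, against 6.67% and 7.70%; *Cry1* was the lower one in both. *Per1* moved the other way from *Per2* in liver, from 12.2 to 16.3 TPM, within the fold. The interaction was called for *Per2* (−1.10, SE 0.19, adjusted p = 0.00691 by edgeR) and for no other gene of the 11. Of all genes 1.36% were called lower in it.

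Of 14 genes with D-boxes that PAR bZIP factors are known to drive, 11 were listed under their symbol. In *duper* liver 6 of the 11 were lower past the fold and 1 higher, where 10.5% and 4.75% of all genes were. Their median log2 ratio was −0.75, against −0.11 for all genes. This count and that of the E-box genes above were made by TPM only. On TMM-scaled counts the median of all genes in liver was 0.06, so genes may fall within the fold there. The 6 included *Alas1*, the first enzyme of heme synthesis, from 281 to 167 TPM, *Ppara*, a receptor that drives fatty acid oxidation, from 97.3 to 49.2, and *Acot4*, an acyl-CoA thioesterase, from 47.3 to 24.9. The remaining 3 of the 6, *Per2*, *Per3* and *Cry1*, also stand among the E-box genes above and are no separate count, and *Cry1* carries the mutation. The gene that was higher was *Lpl*, which encodes lipoprotein lipase, from 7.78 to 13.1 TPM. *Nr1i3* (CAR), a xenobiotic receptor, stood at 188 and 157 TPM, within the fold. In cortex 2 of 10 were lower past the fold, against 7.75% of all genes, and in SCN 1 was lower and 1 higher, against 7.70% and 6.67%, with medians of −0.10 and 0.11. In the interaction 1 of the 11, *Per2*, was called lower, where 1.36% of all genes were. It is the same call as among the E-box genes.

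By tissue, under TMM, 7 of the 11 D-box genes were called higher and 1 lower in liver against cortex, and 10 higher in liver against SCN, where 31.9% of all genes were called higher in each and 33.6% lower in the first. By TPM, *Alas1*, *Nr1i3*, *Ppara*, *Rgs16* and *Acot4* of these 10 were higher in liver than in SCN in both genotypes. *Per1*, at 12.2 and 16.3 against 23.9 and 26.9, and *Cry1*, at 16.8 and 5.44 against 22.9 and 8.14, were lower. *Per2*, *Rora* and *Lpl* were higher in 1 genotype only. Against cortex *Cry1* and *Rora*, both called higher, were lower by TPM. *Dbp* itself was not higher in liver in either comparison. The C/EBP family, bZIP factors related to the PAR group, had 4 of 5 genes called higher in liver against cortex, where 31.9% of all genes were. *Cebpa* led them, at 109 and 126 TPM in liver and 8.74 and 8.22 in cortex. *Cebpg*, also called, was not higher by TPM, at 24.6 and 22.5 in liver and 26.2 and 26.9 in cortex. No member of this family was past the fold between genotypes in SCN or in liver, and 1, *Cebpb*, was lower in *duper* cortex. Of the REV-ERB and ROR genes, which act on *Arntl* through other sites, 2 of 5 were called higher and 2 lower in liver against cortex, beside 31.9% and 33.6% of all genes, and none was past the fold between genotypes in liver.

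Among the Hairy-related genes, the nearest kin of the DEC genes, 6 of 7 were tested, and 3 were called higher and 2 lower in liver against cortex, where 31.9% and 33.6% of all genes were. *Hes5*, a Notch target, shared the liver pattern of *Bhlhe41*: it was listed at 0 counts in both liver libraries, where 3 counts would have been 4.3e-06% and 3.5e-06% of the total in wild type and *duper*, and at 23.1 to 39.8 TPM in the brain libraries. *Hey1* stood at 1.42 TPM in wild type and 22.9 in *duper* liver. Its interaction was 4.31 (SE 0.30, adjusted p = 9.7e-06 by edgeR). It was the 1 gene of the 6 that was called, where 345 of all 18275 genes were called higher.

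For each of the 6 genes the 3 most similar profiles were sought among 11342 named genes that averaged 5 TPM or more, by the distance between log2(TPM + 1) profiles over the 6 libraries, each centred on its own mean. The points share libraries and are dominated by tissue, so the values are descriptions. *Tef* had the closest neighbours, *Nfkbie* (an inhibitor of NF-kappaB), *Sun2* (a nuclear envelope protein) and *Cap1* (an actin regulator), at distances of 0.107, 0.142 and 0.157. *Dbp* was nearest to *Extl1* (0.353), *Gpd2* (0.354) and *Mbnl2* (0.359), which shared its lower level in *duper* liver: *Extl1* stood at 15 TPM in wild type and 7.96 in *duper* liver, *Gpd2*, the mitochondrial glycerol-3-phosphate dehydrogenase, at 17.4 and 6.90, and *Mbnl2*, a splicing regulator, at 30.8 and 20.3. The distance includes *duper* liver, so this shared lower level follows in part from how neighbours were chosen. *Hlf* was nearest to *Adcy9* (0.320), *Mal2* (0.323) and *Kcnt2* (0.328). *Bhlhe41* was nearest to *Grin3a* (0.263), a subunit of NMDA receptors, *Fgf1* (0.303) and *Nipal3* (0.306), and *Ciart* to *St6galnac5* (0.229), *Btbd10* (0.273) and *Map3k9* (0.310), genes that are low in liver. *Bhlhe40* stood furthest from its neighbours, *Map3k20* (0.363), *Phospho1* (0.394) and *Adora1* (0.427), the adenosine A1 receptor. No gene of the clock lists above was among these neighbours. With only 3 neighbours per member among 11342 genes, this does not show whether the members follow other clock genes.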

How the data were processed

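RNA from cortex, SCN and liver of 4 wild type and 4 *duper* hamsters was sequenced as paired reads from stranded mRNA libraries. The authors quantified reads with Kallisto (version not given in the sources used here) on MesAur2.0 (BCM_Maur_2.0), summed transcripts to genes with tximport, and deposited an estimated count matrix and a TPM matrix with 6 columns, beside Kallisto's transcript tables per library. Estimated counts can be fractional and TPM is relative to all transcripts of a library, so that a few very abundant liver transcripts lower the rest.

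Here estimated counts were rounded and tested with edgeR 4.0.16 (TMM, filterByExpr, quasi-likelihood F test, tissue and genotype as terms, Benjamini-Hochberg over 18275 genes, R 4.3.3). DESeq2 1.42.0, library-size scaling, no filter, limma 3.58.1 on log2(TPM + 1) and log2(TPM + 0.1), and leaving out libraries were the alternatives. The tests were tested on simulated data. Ratios with 1 library per group carry 95% Clopper-Pearson intervals. Named genes were the 6 chosen by name, the genes of the lists given in the text, and 3 nearest profiles for each of the 6. The members and lists were chosen with earlier results of these data known. Of the listed symbols, *Avp*, *Por*, *Pdxk*, *Acot3*, *Vip*, *Oxt*, *Trh*, *Folr1*, *Mbp*, *Mobp* and *Gfap* were not found under that name and are not analysed here. Sequences were not used here.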

Additional observations from a re-analysis of the deposited data

Results flagged for a closer look

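The genotype difference of *Dbp* in liver differed from that in the brain tissues by −0.76 on the log2 scale (SE 0.19, adjusted p = 0.0478 by edgeR's quasi-likelihood test), which is why it is listed here; the *duper* over wild type log2 ratio was −1.0 in liver, −0.12 in cortex and 0.05 in SCN. The call was lost with no filter on low counts, with DESeq2 and with limma.

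For *Tef*, *Hlf* and *Bhlhe40* the log2 ratio of *duper* over wild type TPM had opposite signs in 2 tissues with counting intervals that excluded 0 in both. *Tef* was at 0.28 in SCN and −0.12 in liver, *Hlf* at 0.24 in cortex and −0.12 in liver, and *Bhlhe40* at 0.31 in cortex and −0.054 in liver. The difference between these pairs of tissues was not tested, since each had 1 library per genotype; liver against both brain tissues together was tested and gave adjusted p of 0.973, 1.00 and 1.00 by edgeR. On TMM-scaled counts the liver ratios of all 3 genes were above 0, at 0.07, 0.07 and 0.13.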

How the results depend on the processing

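Over 276 test results of the 6 genes under other settings, 235 kept their direction and side of the threshold, 11 passed it newly, 8 lost it and 22 reversed; of 54 values within a tissue, 46 kept within their interval and 8 moved. The calls of *Bhlhe41* and *Ciart* in liver against either brain tissue and of *Hlf* and *Bhlhe40* in SCN against cortex were kept in all 11 alternatives of each.

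Other settings changed the number of genes called for genotype across tissues from 1 to 48 (no filter), 41 (DESeq2), 3 and 0 (limma, log2(TPM + 1) and + 0.1; 667 genes at an unadjusted p under 0.05 in the latter), and to between 2 and 34 with a tissue left out; none of the 6 genes was called in any. SCN against cortex gave 2045 genes, 1357 with limma on log2(TPM + 0.1), and 267 to 3573 with a library left out; 4 of the 6 were called with DESeq2 and 2 to 4 with a library left out, the 4 without either liver library. Liver against cortex called 3 to 5 of the 6 with a library left out, the 3 without *duper* cortex. The interaction gave 593 genes, 350 with library size, 193 with DESeq2 and 0 with limma at either pseudocount (1349 and 1669 at an unadjusted p under 0.05), and 0 of the 6 with no filter, DESeq2 or limma; with a library left out it could not be fitted, as no residual degree of freedom remained. Within liver 2 of the 6 were past the fold with a pseudocount of 0.1 and on TMM-scaled counts, *Bhlhe41* (0.78 and 0.59) beside *Dbp*.

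With library size and limma at both pseudocounts, liver against cortex reversed for *Tef* (−0.98, −1.42, −1.43) and *Bhlhe40* (−0.16, −0.59, −0.60), and liver against SCN for *Tef* (−0.60, −0.86, −0.87) and *Hlf* (−0.41, −0.66, −0.68); these settings do not correct for the abundant liver transcripts, and the median of all genes moved with them. With library size the median in SCN against cortex was 0.19, against 0.02 under TMM. *Dbp* in liver against SCN reversed to 0.15 without *duper* SCN and 0.32 without *duper* liver, in a range from −0.44 to 0.32 with a library left out. Small values reversed about 0: genotype with a tissue left out for *Tef* (−0.0092 to 0.11), *Ciart* (−0.0056 to 0.39) and *Hlf* (−0.054 to 0.12), *Bhlhe41* in SCN against cortex (−0.11 without *duper* cortex, −0.02 without wild type SCN), and the interaction of *Hlf* (0.0025 with no filter, 0.0017 with DESeq2) and *Bhlhe41* (−0.14 with limma on log2(TPM + 1)).

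Depth limits *Ciart* and liver *Bhlhe41*, which rest on 23 to 147 counts. The labels carry no replicate numbers, so no block by replicate was fitted; the genotype comparison already held tissue as a term, and the tissue comparisons genotype. A planned search for motifs in promoters was not run.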
